A study of Mus musculus and Homo sapiens with 10 samples.

Results

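Short inter-LAD islands are stretches of the genome that the lamina leaves free between a pair of lamina-associated domains (LADs) that lie close together. They were taken from the authors' Nanopore consensus list of LADs on mouse chromosomes 1 to 19 and X as every gap of at most 200 kb between consecutive LADs. Of 1154 such gaps, 349 met this limit, which is 30.2% of gaps (95% Wilson interval 27.7 to 33.0%) and 44.58 Mb, or 4.16% of all bases in gaps. The islands were thus chosen by the Nanopore LAD borders alone, and their number, width and flanks are given as a description without a test. The genes, promoters and Illumina LADs found in them were not used in the choice.

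LADs are large chromatin blocks that touch the nuclear lamina, the protein mesh of lamins under the nuclear envelope. They are poor in genes, carry repressive chromatin, and most of their genes are silent or weakly transcribed, while the stretches between them hold most active genes. Many promoters of widely expressed genes lie in CpG islands, where the dinucleotide CpG has escaped the loss seen over most of a mammalian genome.

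DamID maps contacts of this kind by fusing a protein to the bacterial adenine methyltransferase Dam, which methylates GATC sites near the places where the protein sits. The series has 10 samples in 8 groups. In N2A, a mouse neuroblastoma cell line, Dam fused to lamin B1 was read by Nanopore in 1 sample and by Illumina in 2, and Dam alone in 1 sample by each. Expression of the constructs was induced with 2 µg/mL doxycycline, a drug that switches on an inducible promoter; a 10% LaminB1-Dam sample and a wild-type N2A sample were also read by Nanopore, and 3 samples of human HEK293T cells with a CTCF fusion or its Dam control were not analysed here. Both LAD lists are single consensus lists for N2A cells, and the sources used here do not name the samples that entered each of them. The lists hold borders only, so depth is unknown, no value can be given per sample, and no spread between replicates exists for any result that follows. Expression was not measured, so whether a gene named here was active in these cells was not tested.

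The sequences of 5 promoters show the range of what islands hold. Each is the run of 250 bases before a start site, 5′ to 3′ on the gene's own strand, from RefSeq on GRCm38.p6 (mm10), with every CpG dinucleotide in capitals. Lmo4 encodes a LIM-domain transcription regulator, Chek1 the checkpoint kinase CHK1, Tmem18 a membrane protein of the nuclear envelope, Akap3 an anchoring protein of the sperm tail and Ifit1 an interferon-induced antiviral protein.
Lmo4 (chr3:144205256-144205505, minus strand): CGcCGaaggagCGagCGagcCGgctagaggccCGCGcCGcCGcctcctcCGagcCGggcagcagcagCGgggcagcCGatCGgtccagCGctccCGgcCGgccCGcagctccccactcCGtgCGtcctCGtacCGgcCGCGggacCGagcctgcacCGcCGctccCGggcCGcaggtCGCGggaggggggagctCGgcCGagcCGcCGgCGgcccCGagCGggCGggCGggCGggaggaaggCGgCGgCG
Chek1 (chr9:36726659-36726908, minus strand): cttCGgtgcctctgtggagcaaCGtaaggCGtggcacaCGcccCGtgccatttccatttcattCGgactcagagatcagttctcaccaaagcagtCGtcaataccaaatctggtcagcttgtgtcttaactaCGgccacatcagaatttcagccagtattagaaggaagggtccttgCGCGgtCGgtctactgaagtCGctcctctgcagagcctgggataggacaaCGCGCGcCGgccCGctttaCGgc
Tmem18 (chr12:30584193-30584442, plus strand): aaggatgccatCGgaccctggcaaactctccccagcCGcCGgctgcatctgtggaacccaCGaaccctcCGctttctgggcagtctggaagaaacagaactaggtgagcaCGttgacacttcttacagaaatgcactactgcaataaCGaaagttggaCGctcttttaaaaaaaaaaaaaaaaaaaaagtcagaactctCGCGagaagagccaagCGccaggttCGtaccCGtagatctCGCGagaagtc
Akap3 (chr6:126852848-126853097, plus strand): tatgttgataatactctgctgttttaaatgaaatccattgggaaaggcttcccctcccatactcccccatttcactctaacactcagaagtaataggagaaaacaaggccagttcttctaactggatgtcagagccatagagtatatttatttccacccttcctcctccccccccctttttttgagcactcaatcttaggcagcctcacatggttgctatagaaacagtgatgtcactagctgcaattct
Ifit1 (chr19:34640639-34640888, plus strand): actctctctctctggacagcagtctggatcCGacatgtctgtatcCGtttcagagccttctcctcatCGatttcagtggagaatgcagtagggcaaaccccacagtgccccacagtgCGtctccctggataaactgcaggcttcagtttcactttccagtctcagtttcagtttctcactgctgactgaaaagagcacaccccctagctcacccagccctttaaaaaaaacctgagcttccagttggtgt
The Lmo4 run held 44 CpG dinucleotides, that of Chek1 18, that of Tmem18 15, that of Ifit1 4 and that of Akap3 0. The island at Lmo4 had the same borders in both lists, those at Chek1, Akap3 and Ifit1 were free of Illumina LADs, and that at Tmem18 was wholly covered by one.

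The islands were narrow, and many came in short runs. Their widths ran from 60 to 200 kb on the 20 kb grid of the list, with a median of 120 kb and quartiles of 100 and 160 kb. No gap in either list was narrower than 60 kb. At the limit, 40 islands were 200 kb wide and 24 gaps just outside it were 220 kb wide, so the limit of 200 kb cut through a continuous range. The narrower of the 2 LADs beside an island had a median width of 0.26 Mb and the wider 1.24 Mb, against 0.69 Mb over all 1174 Nanopore LADs. In 109 islands both flanking LADs were at least 500 kb wide, and in 128 a flank was under 200 kb.

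Islands occurred on all 20 chromosomes examined, from 9 on chromosome 18 to 34 on X. Per 100 LADs there were 43.6 islands on X and 41.7 on chromosome 16, and the lowest value was 18.6 on chromosome 13. Of the islands, 170 had no other island across either flanking LAD, while 47 runs held 2, 15 held 3 and 8 held 4 or more. The longest run, of 7 islands, spanned chr3:9920001-20100000, and a run of 6 spanned chrX:31360001-34440000. In all, 109 LADs had an island on each side.

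The Illumina list, which the choice did not use, left most of these narrow stretches open as well. It had no LAD base in 275 of 349 islands (78.8%, 95% Wilson interval 74.2 to 82.8%), beside 75.3% of Nanopore gaps of any width and 73.8% of gaps over 200 kb. A further 62 islands (17.8%) were partly covered and 12 (3.44%, interval 1.98 to 5.91%) wholly covered by Illumina LADs. In bases, 92.9% of island sequence lay outside Illumina LADs, against 97.4% in gaps of 200 kb to 1 Mb and 99.1% in gaps over 1 Mb. In the 589 Nanopore LADs that flank an island, 8.53% of bases lay outside Illumina LADs, and in all Nanopore LADs 9.73%. The island share therefore lay near that of wider gaps and far from that of the LADs on either side. Over chromosomes the open share was 92.2 ± 7.52% (SD, n = 20), with the lowest value, 64.3%, on chromosome 12 and the highest, 98.9%, on chromosome 5. These are regions and chromosomes of 1 genome in 1 pair of lists, so no test was made, and the intervals cover counting error only.

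The share of islands free of Illumina LADs showed no order with width. Among islands of 60 to 80 kb, 63 of 76 (82.9%) had no Illumina LAD base. The count was 82 of 112 (73.2%) at 100 to 120 kb, 73 of 93 (78.5%) at 140 to 160 kb and 57 of 68 (83.8%) at 180 to 200 kb. The 95% Wilson intervals of these 4 width groups overlapped. In bases, the open share was 91.4% at 60 to 80 kb and 88.0% at 100 to 120 kb. It was higher in wider islands, with 94.8% at 140 to 160 kb and 96.2% at 180 to 200 kb. Just inside the limit, 34 of 40 islands were open, and just outside it 18 of 24 gaps.

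**Figure D1:**
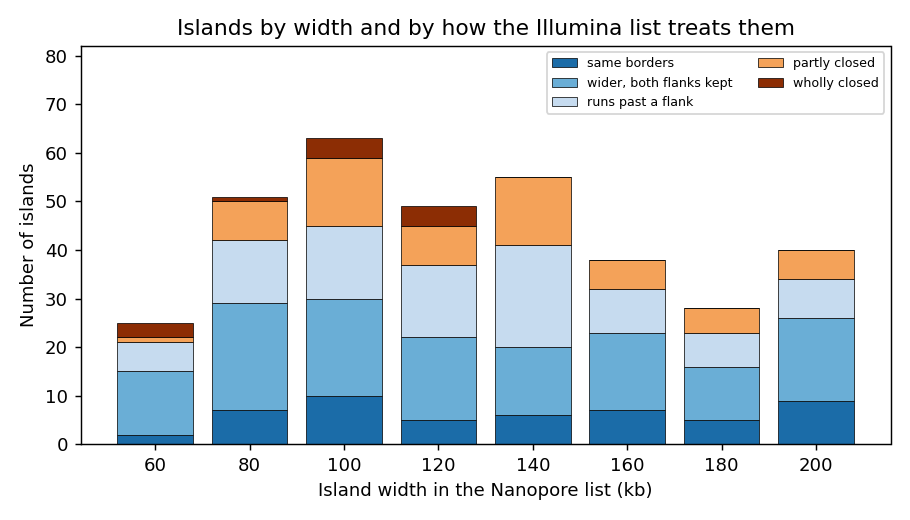
Number of Nanopore inter-LAD gaps (vertical axis) at each width on the 20 kb grid (horizontal axis, kb), coloured by how the Illumina LAD list treats them. Islands run from 60 to 200 kb, and open islands make up most of every width.

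The Illumina borders of the islands were more often wider than identical. In 51 islands (14.6%) both borders fell on the same grid position in both lists. In 130 (37.2%) the Illumina gap was wider while parts of both flanking LADs were kept; the larger of the border shifts had a median of 40 kb and was no more than 20 kb in 62 of them. In 94 (26.9%) the Illumina gap ran past a flanking Nanopore LAD or lay beyond the outermost Illumina LAD, which was so in 4, and the narrower flank of these islands had a median width of 120 kb. Bins 100 to 120 kb to the left and right of the centres were compared for the 340 islands off chromosome 18. Nanopore LADs covered 98.1 and 98.8% of bases there and Illumina LADs 69.1 and 66%. The choice of islands itself puts Nanopore LADs in these bins and does not bind the Illumina list. No conclusion is therefore drawn from that difference. In the 2 bins at the centre, Illumina LADs covered 4.71 and 4.56%. The Illumina gap around an open island was itself at most 200 kb wide in 132 cases. Of the 62 partly covered islands, 39 lost 1 grid step of 20 kb, 7 lost at least 50% of their bases, and 2 held an Illumina LAD that touched neither border.

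Some of the 51 islands with the same borders in both lists are described here as examples. Others of this class held no annotated gene, as at chr3:15620001-15760000, or a vomeronasal receptor gene, as at Vmn1r62. Lmo4 (chr3:144188530-144205255, 16.7 kb) was the only protein-coding gene in an island of 80 kb between LADs of 1.24 and 0.16 Mb. Ube3a, the imprinted ubiquitin ligase gene whose loss causes Angelman syndrome (chr7:59228750-59310837), filled 82.1 kb of an island of 100 kb between LADs of 1.38 and 2.34 Mb. An island of 200 kb on chromosome 4 held Stil, Cmpk1, Tal1, Pdzk1ip1, Foxd2 and Foxe3, among them the blood stem-cell regulator Tal1 and a pair of forkhead genes. Another of 140 kb on chromosome 3 held Eif4e, the cap-binding translation factor, with Metap1 and Adh5. Lmo4, Ube3a and Eif4e were picked as examples after their values were seen.

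**Figure D2:**
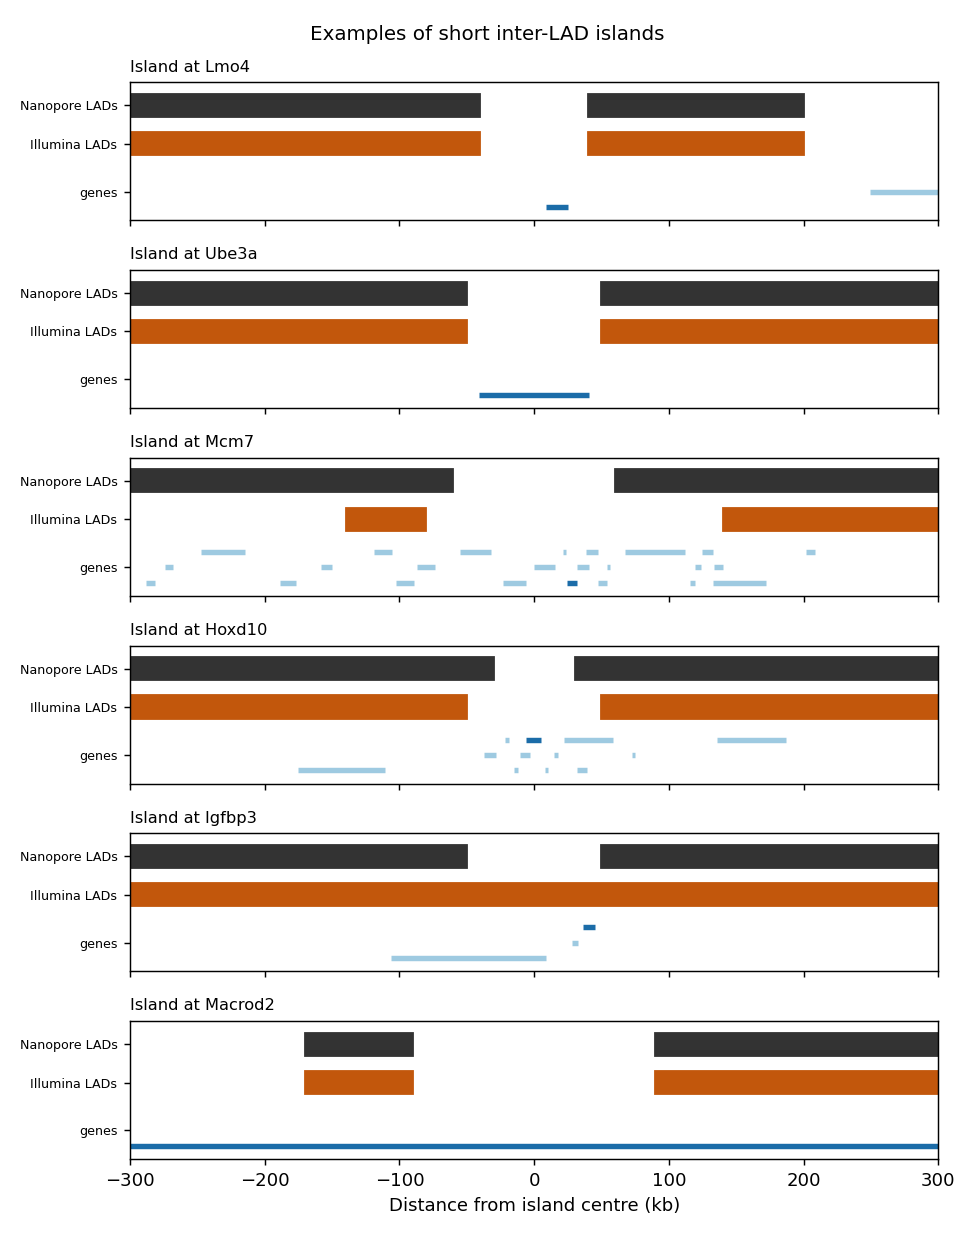
LADs of both lists (upper rows of each panel) and protein-coding genes (lower row, dark for the gene in the panel title) in windows of 300 kb on either side of 6 island centres; the horizontal axis is distance from the centre in kb. The islands at Lmo4, Ube3a and Macrod2 have the same borders in both lists, those at Mcm7 and Hoxd10 are wider in the Illumina list, and that at Igfbp3 is covered by an Illumina LAD.

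The 12 islands that Illumina LADs covered whole were 60 to 120 kb wide, and 5 of them had a protein-coding gene wholly inside. These genes were Dbx1, a homeobox gene of spinal cord interneurons, Tmem18, Tspan14, the insulin-like growth factor binding protein genes Igfbp1 and Igfbp3, and an uncharacterised gene on chromosome 12. The islands at Dbx1 (chr7:49580001-49640000) and Tmem18 (chr12:30560001-30620000) were 60 kb wide. A further island lay inside Lrp1b and another was crossed by Mb21d2, while 4 held non-coding genes only and 1 had no annotated gene. Of the 12, 4 lay on chromosome 12.

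The density of protein-coding genes in islands was near that of wider gaps and above that of LADs. By gene midpoint, 599 of 21523 protein-coding genes (2.78%) lay in islands. That is 13.4 genes per Mb, against 12.1 in gaps of 200 kb to 1 Mb, 14.6 in gaps over 1 Mb and 4.20 in Nanopore LADs. Over chromosomes the density was 13.6 ± 4.11 per Mb in islands, 12.3 ± 2.68 in gaps of 200 kb to 1 Mb, 14.2 ± 3.80 in gaps over 1 Mb and 4.32 ± 1.63 in LADs (SD, n = 20). It was higher in islands than in LADs on 20 of 20 chromosomes. Against the gaps it was higher on 11 of 20 and on 7 of 20 chromosomes, differences within the spread between chromosomes. Among islands it was lowest on chromosome 14, at 6.52 per Mb, and highest on chromosome 6, at 22.5.

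The narrowest islands had the highest density. The 25 islands of 60 kb held 24 genes per Mb, those of 80 kb 16.2, those of 100 kb 14.0 and those of 120 kb 10.4, and islands of 140 to 200 kb between 11.9 and 13.9. Gaps of 220 kb, just past the limit, held 11.7. Part of the first value rested on 2 islands, the Hoxd island and one with Wbp11 and H2aj on chromosome 6, with 6 genes each; without them it was 17.4 per Mb over 23 islands. Islands open in the Illumina list held 13.4 genes per Mb, partly covered ones 14.4 and wholly covered ones 8.77. Inside the partly covered islands off chromosome 18, transcription start sites numbered 15 in the covered 1.86 Mb, or 8.06 per Mb. In the open 5.64 Mb of the same islands they numbered 80, or 14.2 per Mb.

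**Figure D3:**
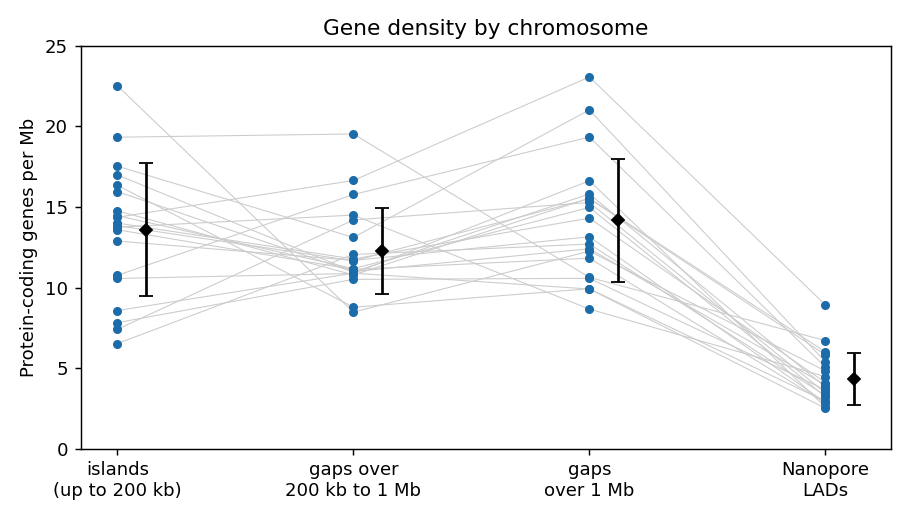
Protein-coding genes per Mb (vertical axis) in islands, in wider gaps and in Nanopore LADs, with a point for each of 20 chromosomes and the mean with its SD. Islands and both classes of wider gap overlap, and LADs lie lower.

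Of the 349 islands, 242 (69.3%) had at least 1 protein-coding gene wholly inside, and these held 508 genes, or 2.36% of all. Most held few, with 112 islands holding 1 gene, 63 holding 2 and 34 holding 3. A further 48 islands (13.8%) were only crossed by the end of a gene, 12 (3.44%) lay wholly inside the body of a single gene, 20 (5.73%) held non-coding genes only and 27 (7.74%) had no annotated gene. No Illumina LAD base fell in 190 of 242 islands with a gene inside, 42 of 48 crossed by a gene end, 7 of 12 inside a gene, 12 of 20 with non-coding genes only and 24 of 27 with no gene. The lower shares, in islands inside a gene or with non-coding genes only, rest on few islands. On X there were 9 of these 27 gene-free islands, 6 of them between positions 30180001 and 34440000; repeats and assembly gaps there were not examined.

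Genes in islands were of middling length, and very long genes were rare. The median was 21.2 kb (quartiles 9.20 and 44.3 kb), beside 22.0 kb in gaps of 200 kb to 1 Mb, 18 kb in gaps over 1 Mb and 12.8 kb in LADs (quartiles 1.95 and 50.7 kb). Genes over 200 kb made up 7 of the 599 (1.17%), against 3.89% in gaps of 200 kb to 1 Mb, 2.73% in gaps over 1 Mb and 8.82% in LADs. The width limit itself keeps such genes from lying inside an island. With genes over 200 kb left out of every class, the medians were 20.8 kb in islands, 20.8 and 17.3 kb in the gaps and 9.73 kb in LADs.

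In 10 of the 242 islands with a gene inside, a single gene took up at least 80% of the width. The 12 longest genes inside islands, chosen for their length, give examples. Adgrl2, an adhesion G protein-coupled receptor of synapses, took up 174 kb of an island of 200 kb between LADs of 1.52 and 3.04 Mb. Arhgap28 took up 161 kb of an island of 200 kb. Ankrd17, an ankyrin repeat gene, took up 142 kb of an island of 200 kb that had the same borders in both lists. Efl1, a GTPase of ribosome maturation, took up 129 kb of an island of 140 kb, and Fign, a microtubule-severing enzyme gene, 127 kb of another of that width. Ccny, Gas2, Hivep1, Rhbdd1, Nck2, Man1a2 and Nt5dc1, of 115 to 138 kb, complete the 12 longest genes inside islands. The islands of 11 of these 12 had no Illumina LAD base, beside 190 of 242 islands with a gene inside (78.5%), and that at Ccny had 60 kb. Just outside the limit, the longest genes inside gaps of 220 kb were Lcorl at 161 kb and Tnfaip8 at 114 kb.

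The reverse arrangement, an island inside a gene, occurred in some very long genes. Lrp1b, a lipoprotein receptor gene of 2058 kb, held an island of 120 kb that the Illumina list covered whole. Macrod2, a mono-ADP-ribosylhydrolase gene of 1998 kb, held an island of 180 kb with the same borders in both lists. Islands in Ebf1, a B-cell transcription factor gene of 390 kb, and Dock2, a guanine exchange factor gene of 557 kb, also had the same borders. The others without a gene wholly inside lay in Gpc6, Agbl1, Marchf1, Nav3, Rabgap1l, Zfp536, Fam110b and a gene model without a name. An island of 140 kb on chromosome 18 also lay inside the gene models Gm37013, Gm38666 and Gm38667. It held Pcdhac1 and Pcdhac2 wholly inside, and with it 13 islands lay inside a protein-coding gene.

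Some genes started in an island and ran into the next LAD. The promoter table held 17274 of 21523 protein-coding genes (80.3%), none of them on chromosome 18, and 506 of these starts fell in islands. In 80 of the 506 (15.8%) the 3′ end of the gene lay outside the island, and in 76 of those 80 it lay in a Nanopore LAD. Every island is bordered by LADs, so a gene that leaves it enters one first, and 40 of the 80 ended under 20 kb past the border. Asic2, an acid-sensing ion channel gene of 1088 kb, started in an island of 140 kb and ran 1060 kb beyond it. L3mbtl4 ran 504 kb, Tmtc2 272 kb and Nrcam, a neuronal adhesion gene, 245 kb beyond the island that held the start. Asic2, L3mbtl4, Tmtc2 and Nrcam were chosen after their values were seen.

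Most starts in islands had a CpG-rich promoter. A promoter was called CpG-rich where its 300 bases, 250 before and 50 after the start, had an observed to expected CpG ratio of at least 0.6 and at least 50% G and C. In islands 302 of 506 starts met this (59.7%, 95% Wilson interval 55.4 to 63.9%), beside 46.3% of all starts in the table. The share was 56.9% in gaps of 200 kb to 1 Mb, 58.0% in gaps over 1 Mb and 17.5% (interval 16.5 to 18.6%) in Nanopore LADs. The median CpG ratio was 0.716 in islands, 0.705 and 0.701 in the gaps and 0.224 in LADs. CpG-rich starts numbered 6.94 per Mb of island and 0.608 per Mb of LAD, and other starts 4.69 and 2.86 per Mb. Islands and LADs thus differed more in CpG-rich starts than in other starts, and islands and wider gaps differed little in either.

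**Figure D4:**
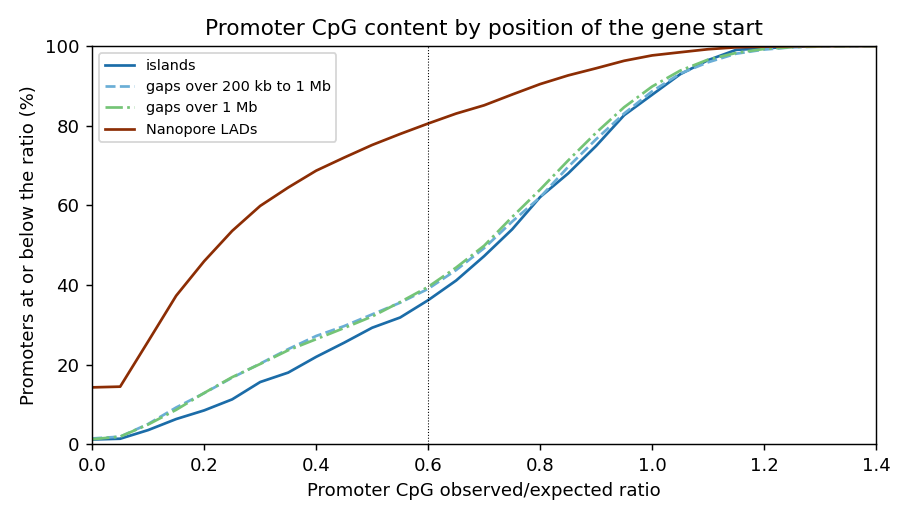
Distribution of the observed to expected CpG ratio (horizontal axis) of the 300-base promoter window for starts in islands, wider gaps and Nanopore LADs, as percent of starts in each class (vertical axis). Islands follow the wider gaps, with a median of 0.716, while starts in LADs have a median of 0.224.

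CpG-rich starts were denser in the islands than in the sequence around them, without gathering at the middle of the islands. Within 20 kb of an island centre there were 99 CpG-rich starts, or 7.28 per Mb, against 6.94 per Mb over whole islands and 1.5 per Mb at 200 to 300 kb from the centre. Other starts numbered 61, or 4.49 per Mb, near the centre and 4.74 per Mb at that distance. Of 302 CpG-rich starts in islands 140 lay in the middle 50% of their island (46.4%, 95% Wilson interval 40.8 to 52.0%), and of the 204 others 100 did (49.0%). Among the 102 islands with exactly 1 start in the promoter table, 41 had it there (40.2%, interval 31.2 to 49.9%). The table lacks some genes, so some of these islands hold further genes, as at Ccl2, Ccl7 and Ccl11. The surroundings are mostly LAD by the choice of islands, so the contrast with them is one of islands against LADs.

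**Figure D5:**
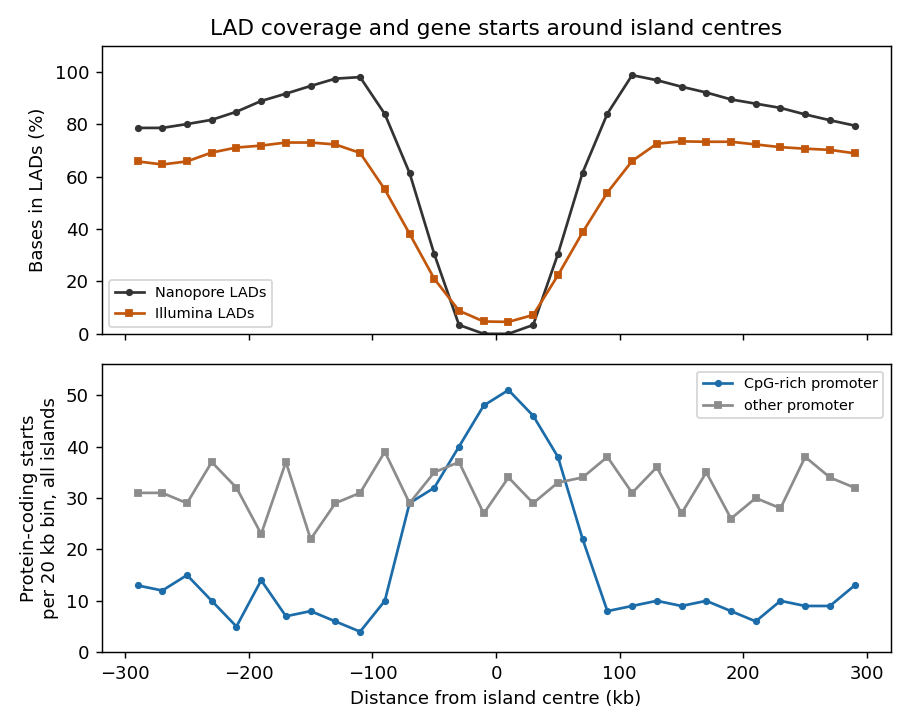
Start sites in bins of 20 kb around the centres of the 340 islands off chromosome 18 (horizontal axis, kb), split by promoter class, with the percent of island positions covered by Nanopore and Illumina LADs. CpG-rich starts number 48 and 51 in the central bins and fall as LADs take up more of each bin, while other starts stay between 22 and 39 a bin.

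A CpG-rich start was found in 178 of 340 islands off chromosome 18 (52.4%). A further 57 had other starts only and 105 had none in the table. On X, 7 of 34 islands (20.6%) had a CpG-rich start, against 171 of 306 on the autosomes (55.9%). No Illumina LAD base fell in 140 of 178 islands with a CpG-rich start (78.7%), 47 of 57 with other starts only (82.5%) and 83 of 105 with none (79.0%). The Wilson intervals of these 3 shares overlapped.

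Pairs of genes that start close together on opposite strands, so that their promoters share a stretch of sequence, were present in islands at a share near that in wider gaps. Of the 506 starts in islands, 60 (11.9%, 95% Wilson interval 9.32 to 14.97%) had a partner on the other strand within 1 kb head to head, beside 7.61% of all starts. The share was 10.5% and 9.94% in the gaps and 1.41% in LADs. Among CpG-rich starts only it was 16.2% in islands, 15.7% and 14.6% in the gaps and 6.32% in LADs. The 30 pairs in islands included Wdr3 and Gdap2, 56 bp apart, Mcm7 and Ap4m1, 138 bp apart, and Mrpl32 and Psma2, which encode a mitochondrial ribosomal protein and a proteasome subunit, 205 bp apart.

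Of 5 short sequence motifs searched in the promoters, the Sp1 and ETS cores and the TATA box differed most between islands and LADs. The letters GGGCGG, the core of Sp1 sites, were present on either strand in 54.7% of promoters in islands, 54.6% and 57.7% in the gaps and 21.8% in LADs, beside 46.9% of all. CCGGAAG, the core of ETS factor sites, was present in 17.8% in islands, 14.8% and 15.1% in the gaps and 4.23% in LADs, beside 12.1% of all. TATAAA was present in 9.09% in islands, 10.7% and 8.20% in the gaps and 25.2% in LADs, beside 13.4% of all. GATC, the letters that Dam methylates and DpnI cuts, were present in 44.9% of promoters in islands, 43.8% and 44.9% in the gaps and 50.2% in LADs, beside 46.3% of all. The share with a Dam site in this window thus lay within a few percent of the share over all promoters. CCAAT was present in 41.1% in islands, 41.6% and 38.0% in the gaps and 41.3% in LADs, beside 39.6% of all. Both strands were searched, none of these motifs shares its whole sequence with another, and a match is a description only.

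Genes of the core machinery of the cell were present in islands at about the share of all genes outside LADs. Over 9 lists (ribosome, mitochondrial ribosome, proteasome, respiratory complex I, translation initiation, RNA polymerase, splicing, RNA helicases and tRNA synthetases), 23 of 500 members lay in islands (4.6%, 95% Wilson interval 3.08 to 6.81%), beside 2.78% of all protein-coding genes. Of their members outside LADs the 23 were 4.83% (interval 3.24 to 7.15%), beside 3.92% of all genes outside LADs. Members included Rpl7, Rpl38 and Rpl36a of the ribosome, Mrpl32 and Mrpl50 of the mitochondrial ribosome, Psma2 of the proteasome and Ndufa9 and Ndufb6 of complex I. Membership went by gene symbol, so the 23 also count Ddx58, a sensor of viral RNA, and Eif2ak3, a stress-response kinase. Rpl36a lay in an island of 140 kb on X with Btk, the kinase gene mutated in X-linked agammaglobulinaemia.

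Few members of tissue-restricted families lay in islands, and most of their members lay in LADs. Of olfactory receptor genes 3 of 1109 lay in islands, of vomeronasal receptor genes 5 of 352, and of keratin, cytochrome P450 and Serpin genes 0 of 112, 0 of 77 and 0 of 63. Together these 5 families had 8 of 1713 members in islands (0.467%), beside 2.78% of all protein-coding genes. Of their 187 members outside LADs the 8 were 4.28% (95% Wilson interval 2.18 to 8.21%), near the 3.92% of all genes outside LADs. Of Zfp zinc finger genes 20 of 397 (5.04%) were in islands and of solute carrier genes 10 of 375 (2.67%). Of 43 cyclin and cyclin-dependent kinase genes 5 were, namely Ccnd1, the G1 cyclin D1, with Ccng1, Ccnl1, Ccny and Cdk8. No member lay in islands for 11 of the 30 lists, among them the potassium channel genes (0 of 94), Rab GTPase genes (0 of 59), neuroblast lineage genes (0 of 24) and nuclear lamina genes (0 of 14). For lists of this size a count of 0 is near the share of 2.78% over all genes; the upper Wilson bound was 3.93% for the potassium channel genes and 21.5% for the nuclear lamina genes. The lists were chosen with earlier results of these data known, neighbours in a family share a place in the genome, and no test of the lists was made.

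Hox genes, which lay out the body axis, had the highest share in islands of the 30 lists, with 16 of 39 beside 2.78% of all genes, all from a pair of clusters. Hoxa2 to Hoxa7, Hoxa9 to Hoxa11 and Hoxa13, 10 genes, lay with Evx1 in an island of 160 kb (chr6:52160001-52320000) between LADs of 0.28 and 0.2 Mb. Illumina LADs covered 40 kb of it. Hoxd8 to Hoxd13, 6 genes, lay in an island of 60 kb (chr2:74660001-74720000) between LADs of 0.58 and 0.7 Mb that had no Illumina LAD base. The 16 genes thus stand for 2 islands and not for 16 separate placements.

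Other islands with many genes were mixed in function. An island of 120 kb on chromosome 5 (chr5:138080001-138200000) held 9 genes, among them Mcm7 of the replicative helicase, Taf6 of the general transcription factor TFIID, and the zinc finger genes Zkscan1, Zscan21 and Zfp113. An island of 200 kb on chromosome 19 held 7 genes, among them Ifit1, Ifit2 and other interferon-induced genes and Lipa, which encodes lysosomal acid lipase. An island of 180 kb on chromosome 6 held 7, among them Casp2, the chloride channel gene Clcn1, the ephrin receptor gene Epha1 and the zyxin gene Zyx. None of these 3 islands had an Illumina LAD base.

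MicroRNA genes were also present in islands, with the largest group in a single cluster. Of 1228 miRNA genes 45 (3.66%) lay in 24 islands, and 19 of the 45 lay in an island of 120 kb on X (chrX:66760001-66880000). Without that island the count was 26 of 1209 (2.15%). Of protein-coding genes 2.78% lay in islands. With the X island included, miRNA genes numbered 1.01 per Mb of island and 0.213 per Mb of LAD. They numbered 0.735 per Mb in gaps of 200 kb to 1 Mb and 0.86 in gaps over 1 Mb. This X island had no CpG-rich start and no Illumina LAD base, and its neighbours were LADs of 5.54 and 3.22 Mb. Its genes give 34 mature miRNA names with 26 different seeds, the bases 2 to 8 that pair with a target. The seed AUUUAGA of the miR-465 5p arms was shared by 4 of these names. AUCAGGG was shared by 3 names of the 3p arms, whose whole sequences were identical.

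The Mcm7 island held the miR-106b cluster, which lies in Mcm7 and is known for limiting cell-cycle inhibitors. Its 3 guide strands are shown 5′ to 3′ from RefSeq on GRCm38.p6, with the seed in capitals.
miR-106b-5p (chr5:138165787-138165807, minus strand): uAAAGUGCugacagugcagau
miR-93-5p (chr5:138165574-138165596, minus strand): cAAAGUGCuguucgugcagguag
miR-25-3p (chr5:138165332-138165353, minus strand): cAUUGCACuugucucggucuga
The first 2 share the seed AAAGUGC and the last has AUUGCAC. The Illumina gap around this island was 220 kb wide and kept both flanks.

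The same question turned round gave a lower share. The Illumina list had 345 gaps of at most 200 kb, covering 43.1 Mb, and 109 of them had no Nanopore LAD base (31.6%), beside 26.9% of all 1129 Illumina gaps. A further 134 (38.8%) lay wholly inside Nanopore LADs, and 56.2% of the bases in these short Illumina gaps lay outside Nanopore LADs. The 51 islands with the same borders in both lists are counted in both directions. Short Nanopore gaps were thus more often free of Illumina LADs than short Illumina gaps were of Nanopore LADs (78.8% against 31.6%). Gaps of any width differed in the same way, with 75.3% against 26.9%, so the contrast is not particular to short gaps. How far calling thresholds or the number of samples in each list move with this was not tested.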

How the data were processed

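The files used were 2 lists of LAD coordinates as deposited by the authors, without scores, counts or depth. Per the submitters' processing notes, minimap2, SAMtools, deepTools and bedtools and the build mm10 were used; the caller, its thresholds and the samples used are not stated there or in the labels. From these lists, gaps between consecutive LADs were taken on chromosomes 1 to 19 and X and compared by bases. Every LAD border lay on the 20 kb grid. Genes came from a RefSeq table of GRCm38.p6 and were placed by midpoint; 340 genes listed below 3 Mb were left out as unplaced. Promoters came from a RefSeq table of the same assembly, by the start farthest 5′; chromosome 18 was not used here.

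Shares have 95% Wilson intervals, which cover counting error only. No test was made, since the lists have no replicates. Genes named are the 12 longest inside islands, up to 4 of each of the 12 islands with most genes, up to 3 touching each of the 10 widest wholly covered islands, the 12 longest genes around an island, up to 5 members of each of the 30 lists, and up to 4 at each side of the limit. Head-to-head pairs, the Hox genes beyond the first members, other genes of the islands named, microRNAs and sequences shown were chosen after their values were seen. The islands, lists and rules were chosen with earlier results of these data known. Alternatives changed the width limit, the LADs and chromosomes used, the meaning of open and the placing of genes. Scripts ran in Python 3.11.15 with pandas 2.3.3, numpy 2.4.6, matplotlib 3.10.9 and scipy 1.17.1.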

Additional observations from a re-analysis of the deposited data

How the results depend on the processing

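Of 25 alternatives, 22 moved their result little and 3 moved it. Little means within the Wilson interval, within the SD over chromosomes or, for counts, within a set ratio of the main count. Among the 22, calling an island open at under 10% of its bases could not change the count. A grid step of 20 kb is at least 10% of any island. A width limit of 100 kb gave 139 islands in place of 349. Counting an island as open when under 50% of its bases lay in Illumina LADs gave 94.6% in place of 78.8%, and the same rule for short Illumina gaps gave 57.7% in place of 31.6%. Under the other alternatives, open islands ran from 77.5 to 78.8%, gene density from 11.4 to 16.7 per Mb and median gene length from 16.8 to 27.3 kb. No paired analysis was possible because each list is a single set of borders with no values per sample. For the same reason no replicate could be left out, and no stricter threshold could be set, as the lists hold no scores. Which of the gene densities and border positions rest on depth is unknown.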

Other observations

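Further genes in islands are given here in groups picked by hand after their values were seen, so the groups are examples and their counts are no result. Over all islands 78.8% had no Illumina LAD base, and the counts below stand beside that share. Genes of genome upkeep included Chek1, the mismatch repair gene Msh6, the Fanconi anaemia gene Fancf, the nuclease gene Fan1, the DNA ligase gene Lig1, the origin recognition gene Orc5 and the telomere-binding protein gene Terf1. Of the 10 listed, 8 lay in islands without an Illumina LAD base; Lig1 lay in an island with 40 kb of Illumina LAD and Terf1 in one with 20 kb. Fancf and Gas2 shared an island of 160 kb between LADs of 1.86 and 3.78 Mb.

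Among immune genes, Rag1 and Rag2, which cut antigen receptor genes, lay with Traf6 in an island of 140 kb on chromosome 2 between LADs of 0.84 and 0.1 Mb. The chemokine genes Ccl2, Ccl7 and Ccl11 lay in an island of 140 kb and Ccl1 in another of 120 kb, both within an Illumina gap of 360 kb. The island at Tlr3, a receptor for double-stranded RNA, was 140 kb wide. All 12 immune genes listed lay in islands without an Illumina LAD base, which came to 6 islands, beside 78.8% of all islands. At each of these 6 hand-picked islands the Illumina gap ran past a flanking Nanopore LAD, a class that held 26.9% of islands. Immune genes not on the list lay otherwise. Irak4 lay in an island where the Illumina gap kept both flanks. Ddx58 and Irgm1 lay in islands with the same borders in both lists, and Birc3 in one with 40 kb of Illumina LAD. Nothing is therefore concluded on immune genes as a group.

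Among imprinted genes, Magel2 and Mkrn3 of the Prader-Willi region shared an island of 80 kb with 20 kb of Illumina LAD, and Cd81 and Tssc4 shared one of 180 kb with 0 kb. Of 6 imprinted genes listed, several of which share an island, 3 lay in islands without an Illumina LAD base. The imprinted genes Gnas and Sfmbt2, not among the 6, started in islands with 0 kb. Of 12 developmental regulators 8 lay in islands without an Illumina LAD base. The 8 included Pou3f3, Irx5 and Satb1, and also Foxd2, Foxe3 and Tal1, which share an island. En1 lay in an island of 160 kb with 80 kb of Illumina LAD. These counts are of genes and the 78.8% is of islands, so genes that share an island count more than once.

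Of 403 tRNA genes 10 (2.48%) lay in islands, near the 2.78% of protein-coding genes. Per Mb they numbered 0.224 in islands, 0.615 in gaps of 200 kb to 1 Mb, 0.236 in gaps over 1 Mb and 0.0372 in LADs. Of the 10, 8 lay in an island of 120 kb on chromosome 11 (chr11:48760001-48880000) with Rack1, a ribosome-bound scaffold protein gene. That island had the same borders in both lists.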
